A study of Mus musculus with 25 samples.

Results

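MHC class I molecules show peptides made inside a cell to CD8 T cells, and the 10 genes described here cover that route from peptide to cell surface. They are the heavy chains *H2-D1* and *H2-K1*, the light chain *B2m*, the transporter subunits *Tap1* and *Tap2*, the loading factor *Tapbp*, the immunoproteasome subunits *Psmb8*, *Psmb9* and *Psmb10*, and the transcriptional regulator *Nlrc5*. They were taken by symbol from the gene columns of the tables of a long-term and a short-term experiment. All 10 were listed in both, among 15315 genes in the long-term table and 14007 in the short-term table, and all 10 passed the filter on low values.

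Pituitaries came from sh*Rb* mice, in which doxycycline (dox) induces an shRNA against *Rb* together with GFP. Every mouse had been on dox. The line carries rtTA at *Rosa26* and the shRNA at *Col1a1*, descends from 1 embryonic stem cell clone, and lowers RB in many tissues rather than in the pituitary alone. The long-term experiment (poly(A) libraries, 12 mice) compared 3 female mice after 6 weeks of dox (6w+dox), 4 mice after 12 weeks (12w+dox, replicates 1 and 2 female, 3 and 4 male) and 5 mice with 6 weeks on and then 6 weeks off dox (12w-res, replicates 1 and 2 male, 3 to 5 female). The short-term experiment (libraries depleted of ribosomal RNA, 13 mice) held 3 male mice after 16 weeks of dox (16w +dox), and after dox removal 4 female mice at 1 day (1d -dox), 3 males at 3 days (3d -dox) and 3 females at 5 days (5d -dox). Sex and time off dox therefore cannot be told apart at 1 and 5 days. The labels give no ages, and no pituitary from a mouse without dox was compared.

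The immunoproteasome is a form of the proteasome in which 3 catalytic subunits replace their constitutive counterparts, *Psmb8* for *Psmb5*, *Psmb9* for *Psmb6* and *Psmb10* for *Psmb7*, and it favours peptides that class I molecules can bind. The *Tap1*-*Tap2* transporter carries these peptides into the endoplasmic reticulum, tapasin (*Tapbp*) bridges it to empty class I molecules, and a heavy chain leaves for the surface once it has bound *B2m* and a peptide. Interferons raise most of these genes, in part through *Irf1*, and *Nlrc5* acts on the class I promoters themselves. Most nucleated cells express class I, leukocytes and endothelium strongly.

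The promoters of the members that the results turn on are given here, taken from RefSeq on GRCm38.p6. The promoter table held 8 of the 10 members, without *Tap2* and *Nlrc5*. Each run lies upstream of the transcription start and is written 5′ to 3′ on the strand of the gene, except that the *Tap1*-*Psmb9* run is on the + strand. The longer runs end at the base before a start. Capitals mark letters searched for on both strands. These were GGGANTCCC for the factor NF-kB, and GAAGTGAAA for the class I form of the interferon-stimulated response element (ISRE). Another ISRE form was searched as GAAANNGAA, and the E2F site as TTTNNCGC. The remaining motifs were the CCAAT box and, for the core of the cyclic AMP response element, TGACG. The NF-kB letters read the same on both strands. The first pair of runs is shown because the heavy chain genes share a stretch of 29 bases that differed at 1 base, T17A, counted from the first base shown with *H2-D1* first.
H2-D1, chr17:35262924-35262952, + strand: GGGATTCCCcatctcctcagTTTCACTTC
H2-K1, chr17:34000429-34000457, - strand: GGGATTCCCcatctccacagTTTCACTTC
H2-D1, chr17:35262844-35263093, + strand: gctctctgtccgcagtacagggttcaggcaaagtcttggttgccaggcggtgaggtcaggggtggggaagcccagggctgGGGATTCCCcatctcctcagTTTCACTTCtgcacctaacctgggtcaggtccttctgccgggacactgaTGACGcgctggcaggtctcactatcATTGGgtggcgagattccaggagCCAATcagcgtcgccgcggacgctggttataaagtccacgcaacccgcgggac
B2m, chr2:122147437-122147686, + strand: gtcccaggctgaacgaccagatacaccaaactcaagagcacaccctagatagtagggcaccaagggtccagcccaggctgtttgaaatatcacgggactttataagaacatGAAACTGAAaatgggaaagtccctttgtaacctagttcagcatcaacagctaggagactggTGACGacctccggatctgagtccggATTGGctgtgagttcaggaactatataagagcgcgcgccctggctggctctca
Tap1 and Psmb9, chr17:34187331-34187555, + strand: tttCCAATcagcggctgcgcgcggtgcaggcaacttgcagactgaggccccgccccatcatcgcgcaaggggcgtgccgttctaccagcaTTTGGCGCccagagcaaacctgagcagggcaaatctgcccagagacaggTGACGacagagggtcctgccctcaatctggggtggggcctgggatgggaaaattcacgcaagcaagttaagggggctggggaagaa
*Tap1* and *Psmb9* start 225 bases apart and point away from each other, so the last run is the whole interval between them, upstream of both.

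Of 32851 promoters, in the 250 bases before the start, the NF-kB letters stood in 0.636% and the class I ISRE letters in 0.402%. Both exact spellings were found in *H2-D1* and *H2-K1* and in no other member searched. Other spellings of the NF-kB site were not searched for, so a run without these capitals may still hold one. The class I ISRE letters are by choice the form of class I genes. Their match in heavy chain genes is therefore no test of these members. The other ISRE form (7.13% of promoters) was found in *B2m* alone among the 8. The E2F letters (4.28%) stood once in the interval shared by *Tap1* and *Psmb9* and in no other member searched. CCAAT (33.8%) was found in 6 of the 8 and TGACG (17.8%) in 5 of the 8. These are matches of letters, and binding was not measured. By the same annotation *Tapbp*, *H2-K1*, *Psmb9*, *Tap1*, *Psmb8*, *Tap2* and *H2-D1* lie on chromosome 17 between positions 33919478 and 35267497, in the MHC, while *B2m* lies on chromosome 2 (122147687 to 122153082) and *Nlrc5* and *Psmb10* lie on chromosome 8 (94434335 to 94527272 and 105935728 to 105938392).

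Expression is given as FPM, the reads of a gene scaled by DESeq2 size factors and set per 1e6, as the authors deposited it. Reads on genes numbered 19066053 to 28968476 per long-term mouse and 9573101 to 13036900 per short-term mouse. The FPM scales of both experiments differ, so levels are compared within an experiment only. *Rb1* measured 16.1 to 20.3 FPM in 12w-res and 1.86 to 5.09 FPM in the long-term mice on dox, and short-term *GFP* averaged 1247 FPM at 16w +dox and 11.7 FPM at 5d -dox, in the direction of the labels. Melanotroph markers such as *Pomc* were high in every mouse. Differences were tested with limma on log2(FPM + 0.5) over all genes of an experiment, and log2 fold changes below are on that scale, where a gene with few reads appears to change less than it did. "Fell" and "rose" are used for a Benjamini-Hochberg adjusted p under 0.05, and "called" for those with an absolute log2 fold change over 1 as well. In bulk tissue, fewer cells of a type and less RNA per cell cannot be told apart.

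Per kilobase of transcript, *B2m* stood at the top at 6w+dox with 377 FPM per kb, above *H2-K1* with 231 and *Tapbp* with 77.0. *H2-D1* followed with 45.7 FPM per kb, and the remaining transporter and immunoproteasome genes lay between 5.34 (*Tap1*) and 19.4 (*Psmb10*). *Nlrc5* was far below them at 0.382 FPM per kb, from 5 to 132 reads per long-term mouse, so its values carry the largest counting error. At 12w+dox *H2-K1* was above *B2m* (130.2 and 94.6 FPM per kb), and in 12w-res they stood at 163 and 135 FPM per kb. The heavy chain *H2-D1* shares 1.79% of its 150-base stretches with *H2-Q1*, so some of its reads could come from that gene, and the other members share none.

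Between 6 and 12 weeks of dox, the transcripts of the class I molecule itself fell while those of *Tap1* and *Tapbp* stayed close to their earlier levels. Protein was not measured. All 10 members had a log2 fold change below 0 (50.6% of all genes did), with a median of -0.64 beside -0.01 over all genes. Of the 10, 6 fell (12% of the 15315 genes tested did), 2 of them called (4.04% of all genes), and in the same 6 no 12w+dox mouse overlapped a 6w+dox mouse (12.4% of all genes). None rose, as 10.4% of all genes did.

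*B2m*, the light chain that every class I heavy chain needs, measured 348, 401 and 225 FPM in the 6w+dox mice and 113, 59.8, 78.3 and 74.5 FPM in the 12w+dox mice. Every 12w+dox mouse was below every 6w+dox mouse. The drop was 3.96-fold (log2 fold change -1.99, standard error 0.22, limma adjusted p = 1.7e-04). *H2-D1*, one of the classical heavy chains, measured 95.7, 129.6 and 62.7 FPM at 6w+dox and 30.3, 25.9, 34.2 and 24.9 FPM at 12w+dox, again without overlap, and was 3.18-fold lower (log2 fold change -1.67, standard error 0.21, limma adjusted p = 2.6e-04). In both genes 6w+dox replicate 3 was the lowest of its group. *H2-K1*, the other classical heavy chain, went from 370.4, 420.3 and 331 FPM to 236, 186, 229 and 193 FPM, and was 1.77-fold lower (log2 fold change -0.83, standard error 0.13, limma adjusted p = 0.0010). The loss was thus smaller for *H2-K1* than for *H2-D1*, 0.83 against 1.67 on the log2 scale. That difference itself was not tested.

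The transporter subunits differed from each other. *Tap2* fell from 53.8, 55.7 and 46.7 FPM to 40.7, 39.0, 30.1 and 35.7 FPM (log2 fold change -0.52, standard error 0.14, limma adjusted p = 0.022). *Tap1* measured 13.3, 17.8 and 16.2 FPM at 6w+dox and 16.9, 14.4, 16.1 and 13.7 FPM at 12w+dox, so the groups lay within each other (log2 fold change -0.04, 95% interval -0.39 to 0.31). *Tapbp*, at 249.6, 234 and 186 FPM and then 209, 233, 212 and 221 FPM, also overlapped (-0.02, 95% interval -0.32 to 0.28). These intervals leave room for small changes in either direction. Within a library, the log2 ratio of *Tap1* to *B2m* went from a mean of -4.29 to -2.34, with no overlap, and that of *Tap1* to *Tap2* from -1.70 to -1.22 (exact permutation test, two-sided, p = 0.0286 for each, the smallest that 4 against 3 mice allow, adjusted p = 0.0429 over the 6 ratios compared). These pairs were chosen after their values were seen, and the adjustment leaves out the other pairs of members. Their p-values are therefore descriptive and not a test of the difference.

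Of the immunoproteasome, *Psmb8* fell from 24.2, 30.2 and 19.9 FPM to 13.7, 11.4, 14.6 and 11.6 FPM (log2 fold change -0.91, standard error 0.27, limma adjusted p = 0.028). *Psmb10* fell from 25.8, 31.2 and 19.4 FPM to 16.8, 15.4, 13.5 and 12.6 FPM (log2 fold change -0.77, standard error 0.22, limma adjusted p = 0.025). *Psmb9* did not pass the test and its groups overlapped, at 21.9, 20.98 and 14.2 FPM beside 11.4, 13.9, 18.6 and 10.4 FPM (log2 fold change -0.48, 95% interval -1.04 to 0.08). *Nlrc5* ranged from 0.408 to 5.46 FPM among the 6w+dox mice alone, and its interval of -1.66 to 0.79 covers changes of either sign.

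**Figure D1:**
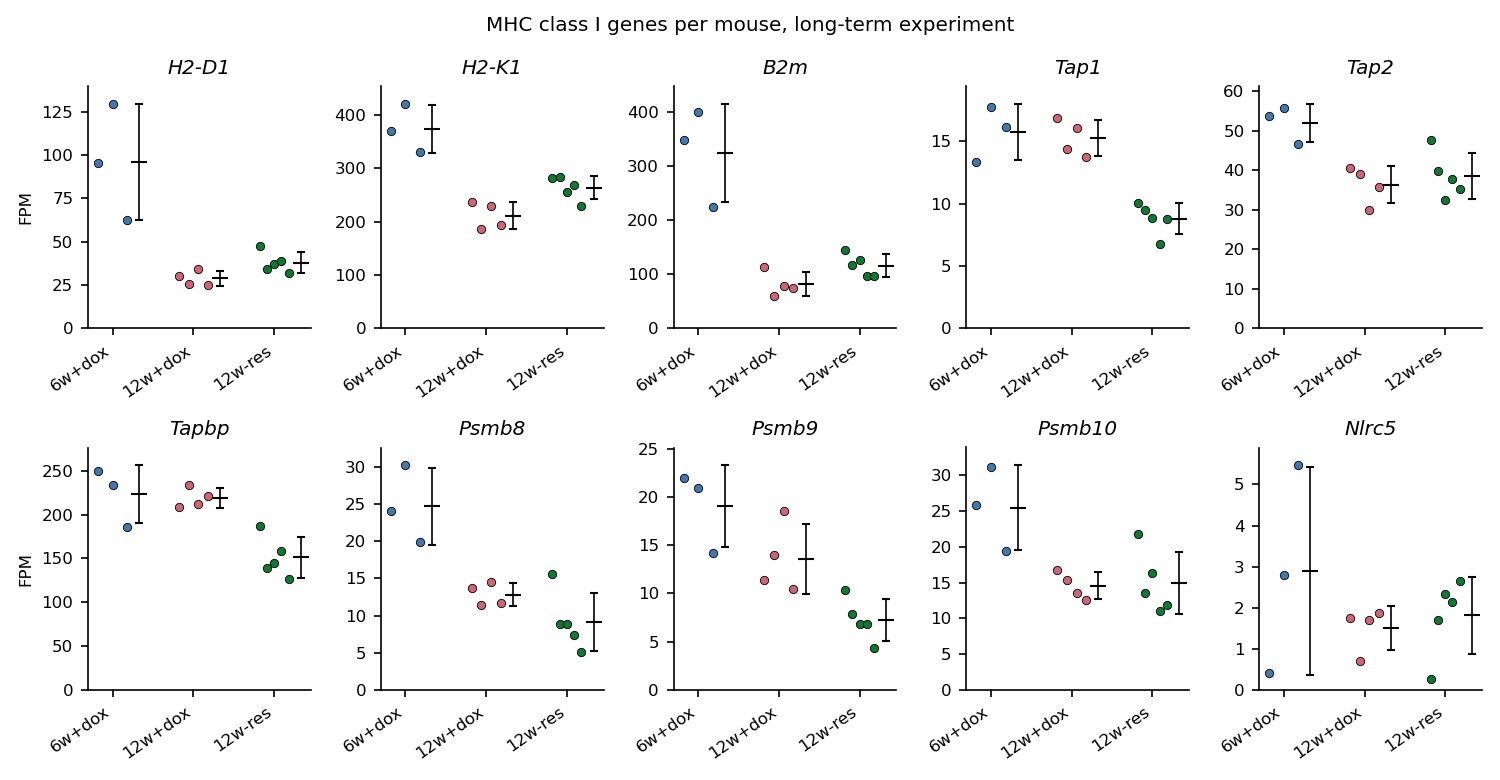
FPM of each of the 10 MHC class I genes (vertical axes, linear from 0) in each mouse of 6w+dox (n = 3), 12w+dox (n = 4) and 12w-res (n = 5), with the group mean and SD to the right of the points. The 6w+dox mice lie above all others for *B2m*, *H2-D1* and *H2-K1*, whereas for *Tap1* the 12w-res mice (6.79 to 10.04 FPM) lie below all others.

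Other cell types moved in the same comparison. Both neural lobe markers were called lower (median log2 fold change -3.59), and so were 3 of 5 fibroblast markers (median -1.59). Of 5 melanotroph and corticotroph markers, *Pax7* and *Drd2* were called higher (1.32 each). The other 3 had log2 fold changes below 0 and did not pass the test (median of all 5 -0.24). These 5 markers summed to 109631 to 381378 FPM at 6w+dox and 96583 to 198910 FPM at 12w+dox. The neural lobe markers summed to 32.3 to 103 FPM at 6w+dox and 1.66 to 3.91 FPM at 12w+dox, and those of fibroblasts to 245 to 265 and then 55.2 to 236 FPM. Summed over 6 marker genes, hormones of other pituitary cells ranged from 58624 to 94019 FPM at 6w+dox and from 1214 to 12977 FPM at 12w+dox. Endothelial markers (8 genes) summed to 92.3 to 123 and then 44.2 to 87.7 FPM, and the 4 of 10 T and NK cell markers that were listed to 2.48 to 4.19 and then 0.647 to 2.09 FPM. Leukocyte markers (8 genes) summed to 43.8 to 56.4 and 43.95 to 63.2 FPM, and macrophage markers (8 genes) to 103 to 150.2 and 152 to 204 FPM. None of the markers in these sums was at 0 in a whole group, and their part in the fall of the class I genes was not tested. All 6w+dox mice were female, and with the female mice alone (3 against 2) 3 members fell, among them *B2m* and *H2-D1* as called genes. Without 6w+dox replicate 1, or without replicate 2, 3 members fell. Scaled by total reads, 3 members fell and *Tap1* and *Tapbp* had log2 fold changes above 0, while the median of all genes moved by 0.29.

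After 6 weeks without dox, 5 of the 10 members passed an adjusted p under 0.05, in both directions, as many genes outside the members did too. Compared with 12w+dox, *Tap1*, *Psmb9* and *Tapbp* fell in 12w-res, whereas *B2m* and *H2-K1* rose slightly, with a log2 fold change above 0 that turned below 0 when libraries were scaled by their totals. limma called 0 members (6.24% of all genes were called higher and 5.04% lower), as did edgeR and DESeq2 (14.1% and 14.6% of all genes called), with 7 members at an unadjusted p under 0.05. Of the 10, 3 fell (18.3% of all genes did) and 2 rose (19.4% did). These counts are near the shares of all genes, so nothing is read from them about the members as a set. The 3 that fell did not overlap between the groups (17.4% of all genes were lower without overlap), and no member was higher without overlap (17.1% of all genes were). Leaving out 12w+dox replicate 2 or 4, or 12w-res replicate 2 or 3, left 3 members past the threshold, those that fell. The median over the members was 0.04 beside -0.00 over all genes, so that as a group they did not lean either way.

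*Tap1* measured 16.9, 14.4, 16.1 and 13.7 FPM at 12w+dox and 10.04, 9.51, 8.83, 6.79 and 8.79 FPM in 12w-res. It was 1.70-fold lower (log2 fold change -0.77, standard error 0.14, limma adjusted p = 9.7e-04), and also below each 6w+dox mouse. *Psmb9*, which is transcribed from the other side of the same 225-base interval, measured 11.4, 13.9, 18.6 and 10.4 FPM and then 10.4, 7.82, 6.78, 6.79 and 4.37 FPM. It was 1.84-fold lower (log2 fold change -0.88, standard error 0.23, limma adjusted p = 0.0084), with the highest 12w-res mouse, replicate 1, just below the lowest 12w+dox mouse. *Tapbp* measured 187, 139, 145, 158 and 126 FPM in 12w-res, all below the 209 to 233 FPM of 12w+dox (log2 fold change -0.55, standard error 0.12, limma adjusted p = 0.0033).

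Among the transcripts of the class I molecule itself, *B2m* measured 145, 116, 126, 95.9 and 97.4 FPM in 12w-res, above 3 of the 4 12w+dox mice in every case but below replicate 1 of that group (113 FPM) in 2 mice. It was 1.44-fold higher (log2 fold change 0.53, standard error 0.20, limma adjusted p = 0.047), and edgeR on the recovered reads left it just outside the threshold (adjusted p = 0.057). *H2-K1* at 281, 283, 256, 268 and 229.6 FPM, with 12w-res replicate 5 alone below the highest 12w+dox mouse, was 1.25-fold higher (log2 fold change 0.33, standard error 0.11, limma adjusted p = 0.037). *H2-D1* at 47.4, 34.2, 37.2, 38.9 and 32.2 FPM was not past the threshold (log2 fold change 0.39, 95% interval 0.00 to 0.78, limma adjusted p = 0.10). When libraries were scaled by their total reads, *B2m*, *H2-D1* and *H2-K1* had log2 fold changes of -0.12, -0.26 and -0.33, of which that of *H2-K1* was a fall at an adjusted p of 0.033. That scaling moved the median of all genes by -0.61, and relative to it the 3 genes stood at 0.48, 0.35 and 0.27. With total-read scaling, the split of members past an adjusted p of 0.05 went from 2 higher and 3 lower to 0 higher and 7 lower. The 5 melanotroph and corticotroph markers summed to 458945 to 581250 FPM in 12w-res and 96583 to 198910 FPM at 12w+dox. Their part in the shift of the median was not tested.

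*Psmb8* was at 15.5, 8.93, 8.83, 7.44 and 5.08 FPM in 12w-res, where replicate 1 exceeded all 12w+dox mice and the other 4 were below them (log2 fold change -0.54, 95% interval -1.05 to -0.03, limma adjusted p = 0.088). *Tap2* (log2 fold change 0.08, 95% interval -0.19 to 0.35) and *Psmb10* (-0.00, 95% interval -0.42 to 0.41) gave no difference that these mice could resolve. *Nlrc5* (0.10, 95% interval -0.97 to 1.18) was too variable to place, with 12w-res replicate 1 at 0.260 FPM and the other 4 at 1.69 to 2.65 FPM.

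The scale factor of a library cancels in a ratio of 2 of its genes, apart from the 0.5 added to each value. The log2 ratio of *Psmb8* to its constitutive counterpart *Psmb5* was 1.12, 0.57, 0.62 and 0.70 at 12w+dox and -0.05, -0.55, 0.09, -0.63 and -0.86 in 12w-res. Every rescued mouse was lower, by 1.15 on average (exact permutation test, two-sided, p = 0.00794, the smallest that 5 against 4 mice allow, adjusted p = 0.0357 over 9 ratios). That of *Psmb9* to *Psmb6* was -2.34, -2.38, -2.19 and -2.38 and then -3.14, -3.12, -3.56, -3.44 and -3.96, lower by 1.12 with the same p. That of *Psmb10* to *Psmb7* was not lower (difference 0.23, exact permutation p = 0.254, adjusted p = 0.327). So 2 of the 3 immunoproteasome subunits lost ground to their counterparts and the other one, encoded outside the MHC, did not, although the difference between the pairs was not itself tested. The counterparts in this comparison did not pass the test: *Psmb5* had a log2 fold change of 0.61 (limma adjusted p = 0.053), *Psmb6* of 0.25 (0.32) and *Psmb7* of -0.23 (0.33). Of the 9 ratios over the 3 comparisons 4 passed, and 0 passed without 12w+dox replicate 1 or without any of the 5 12w-res mice in turn, where fewer mice also raise the smallest p the test allows. Without any of the 6w+dox mice, 2 passed. *Tap1* lost likewise against *Tap2* (log2 ratio -1.22 to -2.07) and against *B2m* (-2.34 to -3.64), without overlap in either (exact permutation p = 0.00794, adjusted p = 0.0238). The pairs with *Tap1* were chosen after their values were seen, so these p-values are descriptive only.

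**Figure D2:**
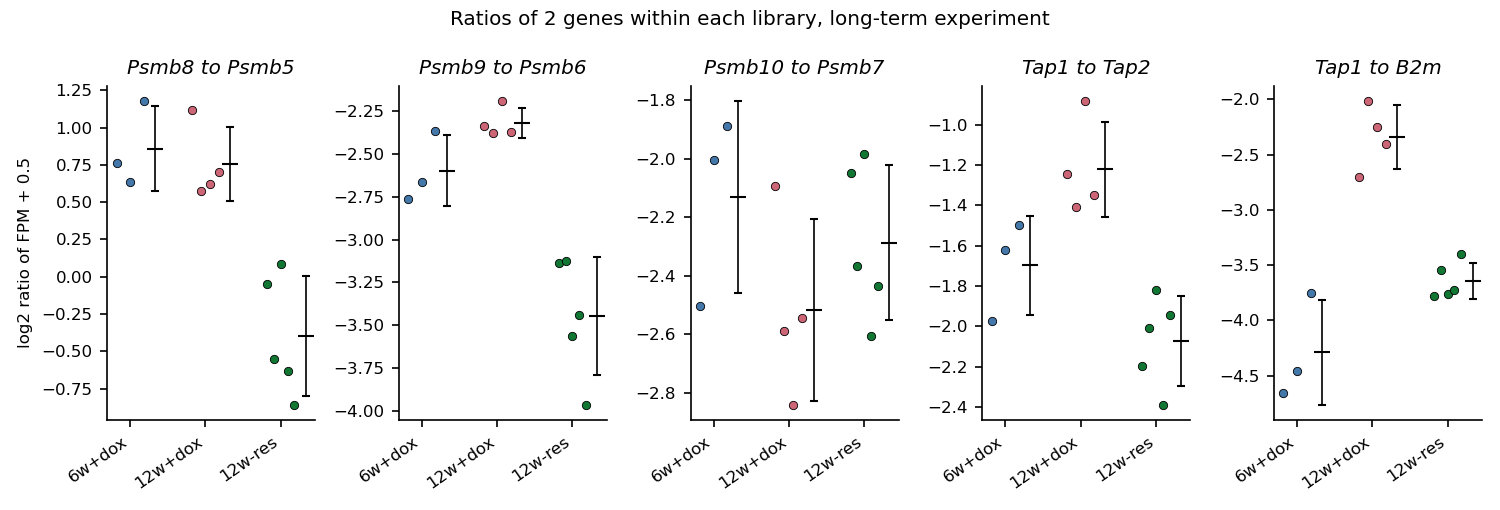
Log2 ratio of FPM + 0.5 of 2 genes within a library (vertical axes, which differ between panels and do not start at 0) for each long-term mouse, with the group mean and SD to the right. The 12w-res mice lie below all 12w+dox mice for *Psmb8* to *Psmb5*, *Psmb9* to *Psmb6*, *Tap1* to *Tap2* and *Tap1* to *B2m*, and overlap them for *Psmb10* to *Psmb7*.

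The markers of several other cell types were higher in 12w-res. Leukocyte markers summed to 88.7 to 146 FPM in 12w-res beside 43.95 to 63.2 at 12w+dox, and all 8 of them rose. Macrophage markers summed to 249.2 to 503 FPM beside 152 to 204 (7 of 8 rose), endothelial markers to 156 to 174 beside 44.2 to 87.7 (8 of 8 rose) and fibroblast markers to 378 to 909.9 beside 55.2 to 236 (5 of 5 rose). T and NK cell markers (4 of 10 listed) summed to 0.472 to 2.48 beside 0.647 to 2.09, and 0 of 4 passed the test. Melanotroph and corticotroph markers (5 genes) summed to 458945 to 581250 FPM beside 96583 to 198910. Of these 5, 1 was called higher and 2 fell, with a median log2 fold change of -0.14. Hormones of other pituitary cells (6 genes) summed to 17292 to 34917 FPM beside 1214 to 12977, and 2 of 6 rose. The part of these cells in the values of the class I genes was not tested. Both groups held both sexes. A test of the sex difference in the response passed for 0 of the 10 members in limma (5 of 15315 genes), with *Tap2* at an unadjusted p of 0.021 (adjusted p = 1.00), 1 member of 10 at that level.

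Against 6w+dox, the rescued pituitaries had lower levels of 9 of the 10 genes by an adjusted p under 0.05. All 10 members had log2 fold changes below 0 (51.6% of all genes did), 9 fell (16.8% of all genes did) and 4 were called (5.82%), with a median of -0.79 beside -0.02 over all genes. The called genes were *B2m* (log2 fold change -1.46), *Psmb8* (-1.45), *Psmb9* (-1.36) and *H2-D1* (-1.28), each with standard errors of 0.20 to 0.26 and a limma adjusted p of at most 0.0010. For 6 members, these 4 with *H2-K1* (-0.50) and *Tap1* (-0.81), no 12w-res mouse reached a 6w+dox mouse (15.9% of all genes were lower without overlap). *Psmb10* (-0.77), *Tapbp* (-0.56) and *Tap2* (-0.44) fell with overlap, and *Nlrc5* did not pass (-0.33, 95% interval -1.50 to 0.84). The 6w+dox mice were all female, and with the female 12w-res mice alone 9 members fell and 4 were called. Markers of other cell types moved here as well: 5 of 8 leukocyte, 5 of 8 macrophage, 3 of 8 endothelial and 1 of 5 fibroblast markers rose. Of 5 melanotroph and corticotroph markers 3 rose and 1 fell. Among the markers that fell were 2 of the 4 tested of T and NK cells, 2 of 6 of other pituitary cells and both of the neural lobe (median log2 fold change -3.58). Their part in the result was not tested. This comparison shares the 6w+dox mice with that of 12w+dox and the 12w-res mice with that of dox removal.

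Read over the 3 groups, then, the members differed in their patterns. The 12w-res mice went off dox after 6 weeks, so 12w-res does not follow 12w+dox in time. *B2m*, *H2-D1* and *H2-K1* fell from 6w+dox to 12w+dox and lay in between in 12w-res, where their order against 12w+dox depended on scaling. *Tap1* and *Tapbp* did not pass the test between 6w+dox and 12w+dox, and were lower in 12w-res than in either. *Psmb8* and *Psmb9* had their highest mean at 6w+dox, a lower one at 12w+dox and the lowest in 12w-res (24.8 ± 5.19, 12.8 ± 1.54 and 9.17 ± 3.89 FPM for *Psmb8*, and 19.0 ± 4.25, 13.6 ± 3.64 and 7.23 ± 2.18 FPM for *Psmb9*, SD, n = 3, 4 and 5). Of the 2 comparisons with 12w+dox, 1 passed the test for each gene. *Tap2* and *Psmb10* were lower at 12w+dox and in 12w-res than at 6w+dox, and 12w+dox and 12w-res did not differ in a way the test could detect.

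**Figure D3:**
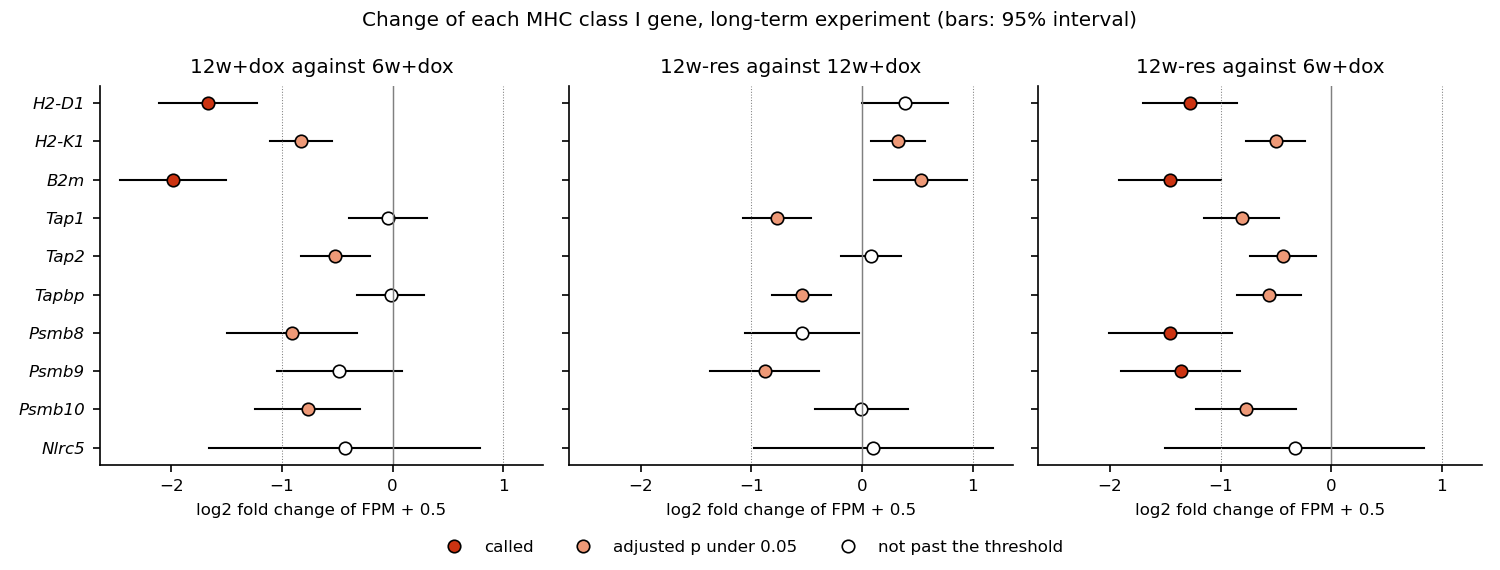
Log2 fold change of FPM + 0.5 (horizontal axis) with its 95% interval for each of the 10 genes in the 3 long-term comparisons, where dotted lines mark a 2-fold change. All points of the left and right panels lie at or below 0, and in the middle panel *Tap1*, *Tapbp* and *Psmb9* lie below 0 and *B2m* and *H2-K1* above it, the latter 2 turning below 0 when libraries are scaled by total reads.

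Of 52 other genes of the pathway, listed by role, 48 were in each table. From 6w+dox to 12w+dox 4 rose (10.4% of all genes did) and 9 fell (12% did). The largest changes were those of *Lnpep*, an aminopeptidase that trims peptides in endosomes (8.80 ± 5.22 to 32.1 ± 6.39 FPM, SD, n = 3 and 4, log2 fold change 1.99, limma adjusted p = 0.0015), of *Irf8*, an interferon regulatory factor of myeloid cells (11.5 ± 0.475 to 24.7 ± 7.76 FPM, log2 fold change 1.01, adjusted p = 0.010), and of *Pdia3*, the disulfide isomerase of the loading complex (log2 fold change -0.86, adjusted p = 0.026, groups overlapping). Of the 3 proteasome activator genes listed, which are not all subunits of 1 complex, 2 fell. Of the 3 constitutive catalytic subunits *Psmb5* (log2 fold change -0.80, limma adjusted p = 0.044) and *Psmb6* (-0.76, adjusted p = 0.022) fell as well. The log2 ratios of *Psmb8*, *Psmb9* and *Psmb10* to their counterparts did not differ between 6w+dox and 12w+dox in a way the exact permutation test could detect (differences -0.11, 0.28 and -0.38, smallest adjusted p = 0.154).

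From 12w+dox to 12w-res 10 of the 48 rose (19.4% of all genes did) and 13 fell (18.3% did). Of 7 other peptide loading genes 4 rose and none fell, although the member *Tapbp* fell, and of 15 regulators 7 fell and none rose. The difference between these lists was not tested. *Pdia3* rose from 999 ± 163 to 2367 ± 223 FPM (SD, n = 4 and 5, log2 fold change 1.25, limma adjusted p = 6.1e-04). *Ifnar2*, a chain of the type I interferon receptor, rose from 23.3 ± 3.83 to 54.4 ± 4.09 FPM (log2 fold change 1.22, adjusted p = 6.4e-05), and *Irf8* was lower in 12w-res, at 10.7 ± 2.40 FPM (log2 fold change -1.13, adjusted p = 9.2e-04). Of the 11 other heavy chains listed, 2 rose and 3 fell.

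Against 6w+dox, 5 of the 48 rose in 12w-res (17% of all genes did) and 15 fell (16.8% did). The leading changes were those of nonclassical heavy chains and of a proteasome activator. *H2-Q4* went from 73.4 ± 8.21 to 25.3 ± 5.92 FPM (SD, n = 3 and 5, log2 fold change -1.54, limma adjusted p = 1.5e-05), and *H2-T23*, which encodes Qa-1, from 66.9 ± 13.6 to 24.2 ± 7.07 FPM (log2 fold change -1.48, adjusted p = 1.6e-04). *Psme1*, a subunit of that activator, went from 134.7 ± 35.6 to 55.5 ± 18.6 FPM (log2 fold change -1.29, adjusted p = 5.5e-04). Both heavy chains had intermediate levels at 12w+dox (46.8 and 43.8 FPM on average).

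Outside these lists, the 5 genes whose pattern over the 12 long-term mice was most like the mean z-score of the members were *Lrrc24*, *Mad2l2*, *Bst2*, *1700028J19Rik* and *Camk2n1* (Pearson's r 0.96 to 0.98). Mice of a group are points of the same condition here, so this likeness follows the 3 group levels to a large part. Among the members, *Psmb8* followed the mean of the other 9 most closely (r = 0.94), *Tap1* (0.58) and *Tapbp* (0.56) less so, and *Nlrc5* not (-0.11).

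In the days after dox removal at 16 weeks, no member passed the test. limma called 0 of 10 at 1 day, 3 days and 5 days against 16w +dox and at 5 days against 1 day, and so did edgeR and DESeq2, and no member had an adjusted p under 0.05. At an unadjusted p under 0.05 there were 0, 0, 0 and 1 members (*H2-D1* at 5 days against 1 day). Few genes passed anywhere: 0.00716% of 13958 genes were called higher and 0.0358% lower at 1 day, 0.0788% and 0.0502% at 3 days, 0.086% and 0.107% at 5 days, and 0.00716% in each direction between 1 and 5 days. An adjusted p under 0.05 alone was reached by 0.043% higher and 0.0573% lower, 0.158% and 0.201%, 0.337% and 0.172%, and 0.00716% each way. In the same order of comparisons edgeR called 0.0358%, 0.107%, 0.229% and 0.0143% of all genes, and DESeq2 0.81%, 0.745%, 0.996% and 0.0502%. Since 0 of 10 is what such shares give, nothing is read from it about these genes.

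One mouse stood apart in this experiment, and the results at 1 day are given with and without it. This mouse, 1d -dox replicate 1, had the highest FPM of all 13 mice for each of the 10 members (that mouse was the highest for 7.02% of all genes tested). *B2m* measured 39.7 FPM in it beside 6.63, 7.18 and 6.95 FPM in the other 1d -dox mice, and *H2-K1* measured 83.4 FPM beside 27.7, 29.3 and 30.3 FPM. *Tap1* measured 15.8 FPM beside 3.45, 3.64 and 3.16 FPM. The other 3 mice of the group lay close together. Divided by the mean of the other 3, its values ranged from 1.52 for *Tapbp* to 16.3 for *Nlrc5* (5.57 FPM, 216 reads, beside 0.244 to 0.499 FPM), with a median ratio of 3.803. On the log2(FPM + 0.5) scale the excess was over 2-fold for 8 of the 10 members and for 0.544% of the 13958 genes (76 genes).

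**Figure D4:**
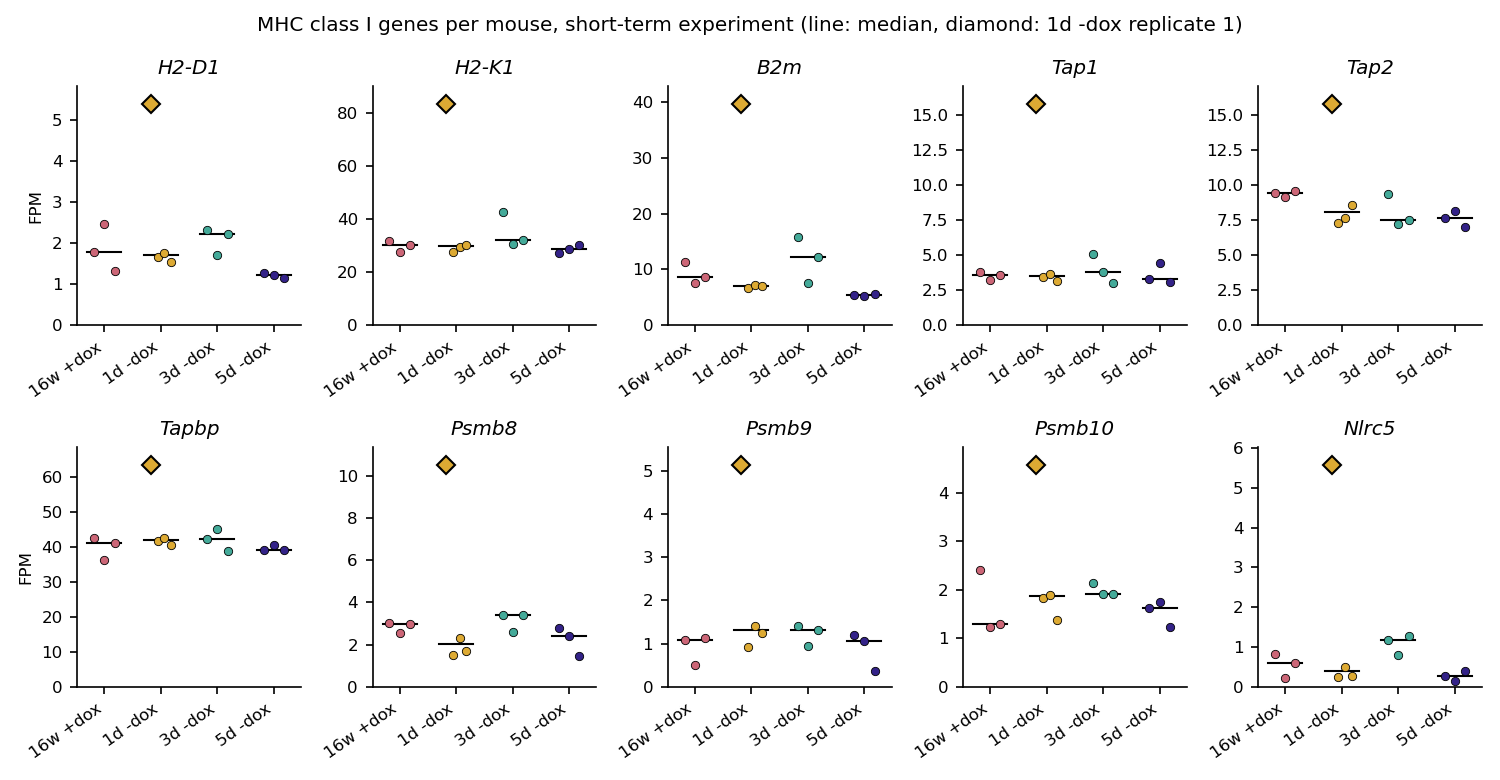
FPM of each of the 10 genes (vertical axes, linear from 0) in each mouse of 16w +dox (n = 3), 1d -dox (n = 4), 3d -dox (n = 3) and 5d -dox (n = 3), with a line at the group median. The diamond, 1d -dox replicate 1, lies above every other mouse in all 10 panels.

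The same mouse was high for part of the pathway around the members, with genes named here after their values were seen. Of 15 regulators 7 exceeded all 12 other mice, while the median ratio of that list was 1.07. Among the interferon regulatory factors *Irf8* had a ratio of 3.16 to the mean of the other 1d -dox mice, *Irf1* of 2.66, *Irf9* of 2.35 and *Irf2* of 1.29, and the feedback inhibitor *Socs1* had one of 2.75. Among heavy chains *H2-T23* (ratio 4.06) and *H2-Q4* (2.57) exceeded all 12 other mice, and were the 2 of 11 listed that did. The peptide loading genes were near the other mice (median ratio 1.02 over 7 genes, 0.944 for *Pdia3*), as were interferon receptors and kinases (1.11 over 7) and constitutive subunits (0.854 over 3). The 5 genes most like the members over the 13 mice were *Gbp4*, *Irgm2*, *Gm12250*, *Zbp1* and *H2-DMb1* (Pearson's r 0.97 to 0.98), a likeness that rests largely on this mouse.

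Leukocyte markers had a median ratio of 2.04 in that mouse and macrophage markers of 1.98, but 1 of 8 and 3 of 8 of them exceeded all 12 other mice. In sum, leukocyte markers stood at 13.3 FPM in that mouse and at 5.65, 7.33 and 6.50 FPM in the other 1d -dox mice. At 3d -dox they stood at up to 15.8 FPM. None of the 10 T and NK cell markers is listed in this table. Melanotroph and corticotroph markers had a median ratio of 0.973. The part of leukocytes in the high class I values was not tested.

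**Figure D5:**
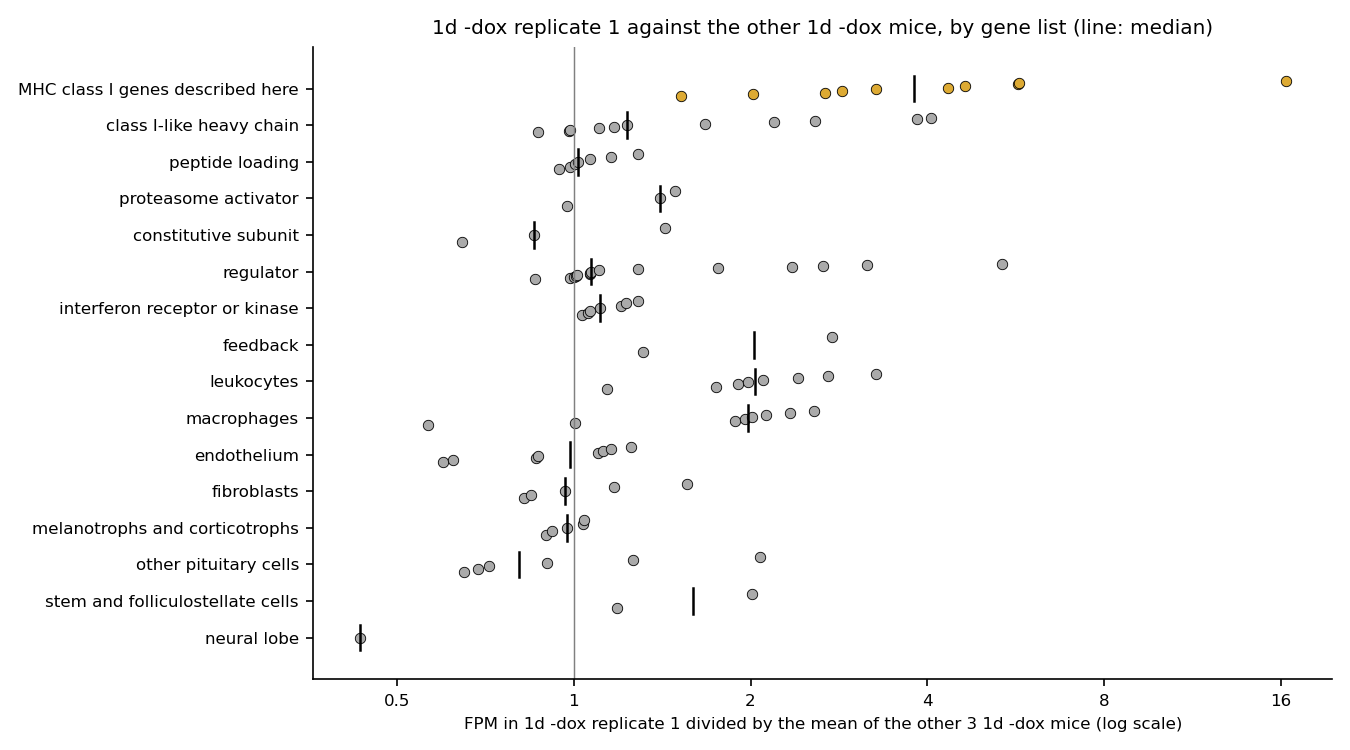
FPM in 1d -dox replicate 1 divided by the mean of the other 3 1d -dox mice (horizontal axis, log scale) for the 10 MHC class I genes, the other pathway genes by role and the markers of cell types, with a line at the median of each list. The members lie at 1.52 to 16.3, above the medians of all other lists for 8 of 10 genes.

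With all mice, 9 of 10 members had a log2 fold change above 0 at 1 day against 16w +dox (49.5% of all genes did), with a median of 0.30. Without replicate 1 it was 3 of 10, with a median of -0.07 and a range of -0.53 to 0.29. At 5 days against 1 day, all 10 were below 0 (49.8% of all genes were), with a median of -0.44, and without replicate 1 it was 8 of 10, with a median of -0.09. *B2m* and *H2-D1* were lower at 5 days than in every 1d -dox mouse (2 of 10 members, 3.51% of all genes), in a comparison of female mice only.

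At 3 days, 9 of 10 members were above 0 (51.9% of all genes were), with a median of 0.19 and no member apart from the overlap of the male groups compared (10.6% of all genes were higher and 11% lower without overlap). *B2m* measured 15.8, 7.49 and 12.3 FPM at 3d -dox beside 11.3, 7.59 and 8.55 FPM at 16w +dox. *Nlrc5* at 1.17, 0.795 and 1.28 FPM beside 0.824, 0.214 and 0.587 FPM had the largest difference (log2 fold change 0.64, 95% interval -0.61 to 1.88). At 5 days 9 of 10 were below 0 (50.2% of all genes were), with a median of -0.17. *B2m* (5.41, 5.32 and 5.51 FPM), *H2-D1* (1.26, 1.22 and 1.15 FPM) and *Tap2* (7.65, 8.13 and 6.98 FPM) were then lower than in every 16w +dox mouse, 3 of 10 members beside 9.64% of all genes. None passed the test (log2 fold changes -0.69, -0.43 and -0.29, smallest limma adjusted p = 0.578), and 5d -dox females were compared with 16w +dox males. Leukocyte markers summed to 5.18 to 8.86 FPM at 5d -dox and to 9.03 to 11.2 FPM at 16w +dox, and endothelial markers to 8.69 to 13.7 and 21.8 to 39.8 FPM, which was not tested as a part of this difference.

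*Tap1* and *Psmb9*, which fell after 6 weeks off dox, measured 3.28, 4.41 and 3.09 FPM and 1.21, 1.06 and 0.366 FPM after 5 days, beside 3.77, 3.26 and 3.57 FPM and 1.07, 0.508 and 1.12 FPM at 16w +dox. Their intervals at 5 days, -0.88 to 0.91 and -0.94 to 0.83 on the log2 scale, include the differences of -0.77 and -0.88 that 12w-res showed against 12w+dox. The ratios of immunoproteasome to constitutive subunits did not pass the exact permutation test in any short-term comparison (smallest adjusted p = 0.800 over 12 ratios), and with 3 against 3 mice such a test cannot go below 0.1. *Rb1* itself averaged 4.19 FPM at 16w +dox and 5.12 FPM at 5d -dox.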

How the data were processed

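RNA was sequenced from snap-frozen pituitaries, 1 library per mouse. The authors aligned reads to mm10 with STAR and deposited FPM, a signal per gene made from counts divided by DESeq2 size factors. The counting tool and its use of strand are not given in the sources used here. Each value was a whole multiple of the FPM of 1 read, so reads were recovered (100% of values whole within 0.1 read). Lines naming no gene (2 long-term, 4 short-term) were left out. In the short-term mice these lines held 68.8% to 75.0% of the recovered reads. Genes with at least 10 reads in over 50% of the mice of a condition were tested, 15315 and 13958 genes. This was done with limma 3.58.1 in R 4.3.3, with a trended prior variance, on log2(FPM + 0.5), with all groups of an experiment in 1 fit and Benjamini-Hochberg adjustment over all genes. A call needed an adjusted p below 0.05 together with a log2 fold change beyond 1 in either direction. Ratios within a library were compared by exact two-sided permutation tests. edgeR 4.0.16 and DESeq2 1.42.0 on recovered reads, TMM and total-read scaling, pseudocounts of 0.1 and 1, other filters, a replicate block, sex and leaving out each mouse were alternatives. Tested on simulated data for 12w+dox against 6w+dox (15031 genes), limma recovered 194 of 200 genes changed 4-fold, with 4 false calls. Only genes with enough reads were changed there, so this does not show how often smaller changes, or those of genes with few reads, are found.

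The members, the other pathway genes and the marker lists were chosen with earlier results of these data known. Other pathway genes were named as the 3 largest changes per comparison with an adjusted p under 0.05, with the constitutive subunits, and others are marked as chosen after their values were seen. Replicate pairs (34) differed by more than counting noise, and each mouse was counted once. Transcript lengths came from GENCODE vM21. Depth limits *Nlrc5* most, at 5 to 132 reads per long-term mouse and 6 to 216 per short-term mouse. One gene of the pathway list is not reported here by name.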

Additional observations from a re-analysis of the deposited data

Results flagged for a closer look

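In groups of 4 to 10 mice, a value was singled out when its gap to the nearest mouse was a large share of the range of its group. Of 30 groups of a gene examined, 11 held such a value, where chance gives about 1 in 20, and 10 of the 11 were in 1d -dox replicate 1. In that mouse *H2-D1* was at 5.39, *H2-K1* at 83.4, *B2m* at 39.7, *Tap1* at 15.8, *Tap2* at 15.8, *Tapbp* at 63.4, *Psmb8* at 10.5, *Psmb9* at 5.13, *Psmb10* at 4.56 and *Nlrc5* at 5.57 FPM, each above the other 3 mice of its group. The 10 genes are of 1 library and are not separate observations. The remaining value was that of *Nlrc5* in 12w+dox replicate 2, at 0.700 FPM below 1.69 to 1.87 FPM in the other 3 mice.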

How the results depend on the processing

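Of 367 long-term log2 fold changes of the members under alternatives other than leaving out a mouse, 339 kept their direction and side of the threshold, 18 reversed, 2 were weaker and 8 stronger. Of the 396 short-term ones 392 did and 4 reversed. From 6w+dox to 12w+dox, the number called (2) became 6 with no minimum fold change and 0 with the replicate block, and the number with an adjusted p under 0.05 (6) became 3 with total-read scaling, 3 with female mice only and 0 with the block. *Tap1* turned to 0.28 and *Tapbp* to 0.31 with total-read scaling. From 12w+dox to 12w-res, the number called (0) became 4 with total-read scaling, 1 with female mice only and 5 with no minimum fold change, and the number with an adjusted p under 0.05 (5) became 3 with female and 1 with male mice only. Total-read scaling turned *H2-D1* to -0.26, *H2-K1* to -0.33, *B2m* to -0.12, *Tap2* to -0.57 and *Nlrc5* to -0.38 there. *Tap2* was -0.18 with female mice only, *Nlrc5* -0.82 with male mice only, and *Psmb10*, at -0.00, was 0.032 with DESeq2, 0.045 with edgeR, 0.0053 with TMM, 0.0045 with sex as a covariate and 0.38 with male mice only. Against 6w+dox, the number called in 12w-res (4) became 9 with no minimum fold change and 6 with total-read scaling, and *Nlrc5* was 0.13 with female mice only. *Tap2* at 1 day was 0.066 with DESeq2 and 0.067 with edgeR, and *Tap1* at 5 days against 16w +dox was -0.059 with total-read scaling. Total-read scaling moved the median of all genes by 0.29, -0.61 and -0.33 in the long-term comparisons and by 0.14 at 3 days. The cause of these changes was not tested.

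Same-numbered mice did not deviate together (correlations of -0.21 to 0.24), so the numbers share only a name. With the replicate block, which drops mice whose number has no partner, 4 in place of 9 members had an adjusted p under 0.05 from 6w+dox to 12w-res, *B2m* (-1.96) and *H2-D1* (-1.60) missed the threshold from 6w+dox to 12w+dox, *Tap1* was 0.0088 there, *Psmb10* 0.064 and *Nlrc5* -0.046 from 12w+dox to 12w-res, and *Tap2* 0.030 at 1 day.

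With each mouse left out in turn, the number called ranged from 2 to 3 from 6w+dox to 12w+dox, 0 to 1 from 12w+dox to 12w-res and 4 to 4 from 6w+dox to 12w-res. Those with an adjusted p under 0.05 ranged from 3 to 6, 3 to 5 and 7 to 9, and the ratios past the threshold from 0 to 4. Log2 fold changes that crossed 0 when a mouse was left out, none of them past an adjusted p of 0.05 with all mice, ranged as follows. For 12w+dox against 6w+dox it was *Tap1* from -0.15 to 0.049, *Tapbp* from -0.14 to 0.068 and *Nlrc5* from -1.20 to 0.16. For 12w-res against 12w+dox it was *Tap2* from -0.0057 to 0.14, *Psmb10* from -0.15 to 0.089 and *Nlrc5* from -0.13 to 0.47. For 12w-res against 6w+dox it was *Nlrc5* from -1.09 to 0.26. For 1d -dox against 16w +dox it was *H2-D1* from -0.11 to 0.44, *H2-K1* from -0.033 to 0.49, *B2m* from -0.36 to 0.47, *Tap1* from -0.043 to 0.68, *Tap2* from -0.25 to 0.11, *Psmb8* from -0.53 to 0.30 and *Nlrc5* from -0.27 to 0.73. For 3d -dox against 16w +dox it was *H2-D1* from -0.011 to 0.34 and *Tap1* from -0.039 to 0.29. For 5d -dox against 16w +dox it was *Tap1* from -0.13 to 0.10, *Tapbp* from -0.078 to 0.037, *Psmb9* from -0.27 to 0.25 and *Psmb10* from -0.18 to 0.20. For 5d -dox against 1d -dox it was *Tap1* from -0.67 to 0.053 and *Psmb8* from -0.63 to 0.19.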
